A study of Sus scrofa with 27 samples.

Results

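Homologous recombination and Fanconi anaemia repair genes were examined in porcine mural granulosa cells, the somatic cells that line the wall of the ovarian follicle. A list of 33 gene symbols defined the set, and a member entered the tests when its mean count over the 27 libraries reached 5. All 33 symbols had an Ensembl identifier in the count files and 32 passed that minimum, out of 11385 named genes tested. XRCC3, a gene of strand exchange, had a mean count of 3.63 and was not tested. The sows were wild-type Large White times Norwegian Landrace females. Full-fed (FF) sows received 6.5 kg of feed per day and feed-restricted (RES) sows 3.25 kg per day for the last 2 weeks of lactation, and the ovaries were taken on day 2 after weaning. Both groups were fed alike over those 2 days, which the labels call full feeding, while the methods of the study give the same smaller ration for every sow. There was 1 library per sow, 13 FF and 14 RES, made from the granulosa layer of the largest healthy follicle cut out by laser capture microdissection. The sows were therefore the replicates, and each stood for 1 follicle, whose size was not a term in any fit. According to the study, sows were picked from larger diet groups by weight loss, mainly for practical reasons and also to sharpen the contrast. Restricted sows that had lost the most weight and full-fed sows that had lost the least were kept. The differences below thus compare sows chosen in this way, and their size in unselected sows was not tested.

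Homologous recombination repairs a broken chromosome, or restarts a stalled replication fork, by copying the sister chromatid. The break is sensed by the MRE11, RAD50 and NBN complex and the kinases ATM and ATR, the ends are trimmed to single strands, and BRCA1, PALB2 and BRCA2 prepare them for the exchange of strands with the intact copy. The Fanconi pathway removes crosslinks that tie both DNA strands together: a core complex with the ubiquitin-conjugating enzyme UBE2T marks the FANCI and FANCD2 pair, which then calls in nucleases and the recombination machinery. Many of these genes are expressed most strongly in the S and G2 phases of the cell cycle, and granulosa cells divide rapidly while the follicle grows. PCNA, the sliding clamp of the replication machinery, served here as the measured marker of replication.

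Library depth was similar in both diets, with 12299220 to 16021200 assigned counts around a median of 13490513 in FF, and 12942198 to 18120922 around 15232600 in RES. Levels are given as normalized counts, meaning counts divided by the DESeq2 size factor of the library, and differences as log2 fold changes of RES over FF from edgeR with their standard error (SE, written after ±) and a p-value adjusted by Benjamini-Hochberg over all tested genes. A difference was called at an adjusted p under 0.05. Of 12 granulosa markers 10 were measured, and their summed level was 92050 to 159000 normalized counts in FF and 102600 to 165000 in RES. The 7 theca markers summed to 2439 to 13670 (median 3833) in FF sows and 1151 to 12690 (median 2894) in RES sows, with CYP11A1 lower in RES. The 6 endothelial markers measured summed to 1091 to 2315 (median 1574) in FF sows and 754.5 to 2289 (median 1077) in RES sows, and 3 of them, CLDN5, EMCN and CDH5, were lower in RES. Immune markers summed to 70.9 to 395 in FF and 41.1 to 308 in RES, and stroma markers to 7195 to 28300 in FF and 6234 to 25720 in RES, with PDGFRB lower in RES (-0.62, adjusted p = 0.0403). Haemoglobin HBB, of the 2 erythroid markers measured, was lower too (-1.89, adjusted p = 0.0171), and of the granulosa markers GJA1 was lower (-0.58, adjusted p = 0.0338) and HSD17B1 higher (0.56, adjusted p = 0.0271). No measured marker of these lists was at 0 in all libraries, and CYP19A1, FOXL2, VWF and MKI67 were not analysed here. These are bulk samples, so fewer cells of a type and less RNA per cell cannot be told apart, and the part of these other cell types in the differences below was not tested.

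RES sow 7 stood apart from the other RES sows and bears on several results below. It had the lowest level among the RES sows for 24 of 32 members, was above the FF median for only 4 of them, and also had the highest RES sums of theca, endothelial, immune and stroma markers. RES sow 1 was at the other end, with the highest RES level for 20 members and the lowest RES sums of theca, endothelial and immune markers. Among the FF sows, sow 2 was lowest for 14 members and sow 4 highest for 12. Over the 14 RES sows the mean level of the members, as z-scores, had an r of -0.80 with the theca sum, -0.81 with the endothelial sum, -0.72 with the immune sum and -0.60 with the stroma sum, and without the 2 sows farthest from the median of each sum these were -0.44, -0.56, 0.05 and -0.50. Over the 13 FF sows the same r was -0.44, -0.54, -0.11 and 0.43, and without the 2 farthest sows -0.04, -0.59, 0.12 and 0.44. These are descriptions of values that come from the same libraries.

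The stretch of genome before the start of each member was read to show what sequence the genes share. RefSeq annotation of Sscrofa11.1, the build of the count files, placed 31 of the 33 members by symbol. Windows from 250 bases before to 50 bases after the annotated gene start were searched on both strands for the E2F letters TTTGGCGC, TTTCCCGC, TTTCGCGC and TTTGGCGG, the core of the element read by E2F transcription factors in many S-phase genes, and for the CHR letters TTTGAA and TTCGAA, an element of many G2 and M phase genes. E2F letters were found in 6 of 31 member windows (19.4%), against 488 of 10488 windows of tested genes (4.65%) and 680 of 19534 windows of all protein-coding genes (3.48%). CHR letters were found in 2 member windows (6.45%), those of FANCM and UBE2T, against 14.2% of the windows of tested genes. No member held matches that shared bases. These matches are letters in a window that was set by the annotated start, and binding was not measured.

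The 6 windows with E2F letters are shown as 30 bases around the match, 5′ to 3′ along the strand of the gene, with the matching letters in capitals. BRCA2, RAD51C, FANCC and MSH6 rose in RES, while BARD1 and ATM were not called.

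BRCA2, chr11:8805915-8805944, plus strand: gagagccggctTTTGGCGCgagcgtctgaa

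RAD51C, chr12:34975865-34975894, plus strand: aaacgtactacTTTCCCGCagtgctgcaaa

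FANCC, chr10:26796522-26796551, plus strand: ttcgtccgaatTTTCCCGCgatgccgcggg

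MSH6, chr3:92814107-92814136, minus strand: ctcctcccagaTTTCCCGCcagcaggcgcc

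BARD1, chr15:117135897-117135926, minus strand: gcgccggcactTTTGGCGCgtttcggccct

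ATM, chr9:36620530-36620559, plus strand: ccgtgctcacgTTTGGCGGgtggggtcaag

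The match lay 24 bases before the annotated start in BRCA2, 26 in BARD1, 13 in FANCC, 73 in RAD51C and 115 in ATM, and 29 bases after it in MSH6. The letters thus stood in the windows of called members and of members that were not called, of which BARD1 had a positive difference and ATM a value near 0. The 250 bases before the start of UBE2T, the member with the largest difference between the diets, are printed in full with the CHR letters of the other strand in capitals, because that window held no E2F letters.

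UBE2T, chr10:24459086-24459335, minus strand: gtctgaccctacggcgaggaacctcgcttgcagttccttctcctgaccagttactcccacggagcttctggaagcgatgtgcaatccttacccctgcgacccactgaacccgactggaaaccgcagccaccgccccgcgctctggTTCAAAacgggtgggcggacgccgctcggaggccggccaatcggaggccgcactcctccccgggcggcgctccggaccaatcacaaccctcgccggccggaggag

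Some member starts lay close to the start of a neighbour that is transcribed the other way. A protein-coding gene on the opposite strand began within 1000 bases upstream of 8 of 31 members (25.8%), against 1234 of 10488 tested genes (11.8%). The distances were 20 bases for MRE11 and ANKRD49, 48 for RAD51C and TEX14, 74 for BRCA2 and ZAR1L, 75 for PALB2 and DCTN5, 110 for CHEK2 and HSCB, and 199 for FANCB and MOSPD2, while EXO1 (70 bases) and ATM (141 bases) faced genes known only by a RefSeq locus number. The partners did not all move with the members. ANKRD49 (0.41, adjusted p = 0.00328) and DCTN5 (0.29, adjusted p = 0.0448) were higher in RES in the edgeR fit, HSCB was lower (-0.44, adjusted p = 0.0246), and ZAR1L (0.03), TEX14 (-0.67) and MOSPD2 (-0.22) were not called.

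Feed restriction was compared with full feeding first, to ask which repair genes differed in the granulosa cells of restricted sows. Of the 32 members, 20 were higher in RES and none was lower, and 28 had a positive log2 fold change. The median over the members was 0.55 on the log2 scale, beside -0.015 over all tested genes. Over all genes, 1609 were called, 14.1% of those tested, with 8.28% higher and 5.85% lower, and at an unadjusted p under 0.05 the counts were 24 members and 3420 genes. The replication clamp PCNA itself was 1.87-fold higher in RES (log2 fold change 0.90 ± 0.22, adjusted p = 0.00736). PCNA ran from 496.3 to 2255 normalized counts in FF, with a median of 1084, and from 530.2 to 3493 in RES, with a median of 2109, so that 13 of 14 RES sows were above the FF median. The called members covered end resection, strand exchange, the BRCA group, the Fanconi core and its target pair, while the kinases ATM and ATR and 5 of 9 core members were not called.

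**Figure D1:**
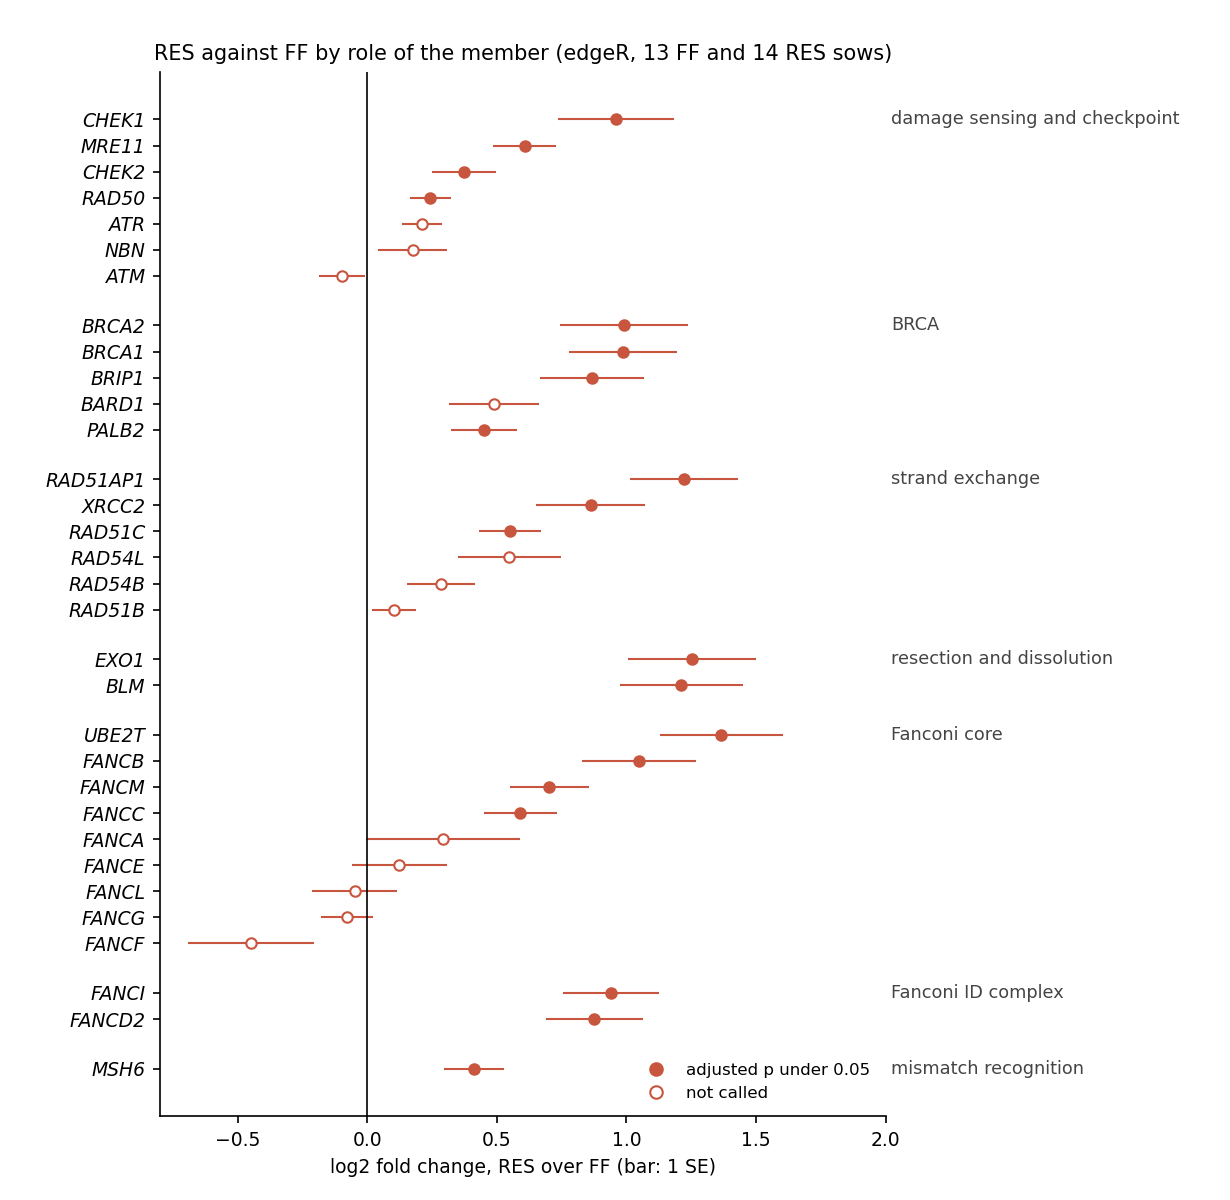
Log2 fold change of RES over FF for the 32 tested members, grouped by role, with bars of 1 SE from the edgeR fit over 13 FF and 14 RES sows. Filled points were called at an adjusted p under 0.05. The 20 called members all lie to the right of 0, and the values run from -0.45 for FANCF to 1.37 for UBE2T.

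Among the damage sensors and checkpoint kinases, CHEK1 had the largest difference. CHEK1 encodes the kinase that ATR switches on to hold the cell cycle and keep stalled forks stable. Its level in normalized counts was 93.9 to 430 (median 198) in FF sows and 99.8 to 618 (median 416) in RES sows. The groups overlapped, with 12 of 14 RES sows above the FF median and 4 above the highest FF sow. The log2 fold change was 0.96 ± 0.22 (adjusted p = 0.00506). CHEK2, the kinase that ATM activates after double-strand breaks, moved less, from 87.2 to 222 (median 192) in FF sows and 167 to 344 (median 240.0) in RES sows, with a log2 difference of 0.37 ± 0.12 (adjusted p = 0.0398). With 1 sow left out for RES against FF, CHEK2 had adjusted p-values of 0.0254 to 0.0780 in edgeR, and the call was lost in 13 of 27 such fits, those without FF sow 2, 6, 7, 8 or 14 or RES sow 1, 2, 3, 6, 8, 9, 11 or 12.

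ATR and ATM, the kinases at the top of the response, were not called. ATR was at 903 to 1325 (median 1042) in FF sows and 944 to 1707 (median 1219) in RES sows, with 12 RES sows above the FF median. Its log2 fold change of 0.21 ± 0.08 (adjusted p = 0.0648) missed the threshold and passed it in 6 of the 37 alternative settings that kept both sequencing quality groups. ATM was at 1830 to 3818 (median 2586) in FF sows and 2055 to 2921 (median 2547) in RES sows, with 6 RES sows above and 8 below the FF median. The ATM value was -0.10 ± 0.09 (adjusted p = 0.500), and no RES sow exceeded the highest FF sow.

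The MRE11, RAD50 and NBN complex, which binds and tethers broken ends, was unequal in its parts. MRE11, the nuclease, was at 382 to 672 (median 442) in FF sows and 346 to 1022 (median 781) in RES sows, and 9 RES sows were above every FF sow. Its log2 fold change was 0.61 ± 0.12 (adjusted p = 0.00194). RAD50, the tethering ATPase, rose by 0.24 ± 0.08 (adjusted p = 0.0344), from a median of 2213 (range 1910 to 2638) in FF to 2752 (range 2138 to 3615) in RES. For RES against FF, RAD50 had adjusted p-values of 0.0154 to 0.0654 in edgeR with 1 sow left out, and the call was lost in 10 of 27 such fits, those without FF sow 1, 2, 5, 6 or 8 or RES sow 1, 2, 6, 11 or 12. NBN, which links the complex to ATM, was not called (0.17 ± 0.13, adjusted p = 0.396), with 1177 to 2054 (median 1384) in FF sows and 1152 to 3001 (median 1728) in RES sows.

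The BRCA group held 4 called members of 5. BRCA1, a ubiquitin ligase that favours end resection, went from a median of 696 (range 384 to 1253) in FF to 1600.0 (range 459 to 2783) in RES. All RES sows but 1 were above the FF median, 9 were above the highest FF sow, and the log2 fold change was 0.99 ± 0.21 (adjusted p = 0.00289). BRCA2, which acts after BRCA1 and PALB2 to start strand exchange, was at 480 to 2260 (median 945) in FF sows and 808 to 4526 (median 2306) in RES sows, a difference of 0.99 ± 0.25 (adjusted p = 0.00792). The BRCA2 range in FF was 4.71-fold, with the 2 highest FF sows, 4 and 10, near the RES median. BRIP1, the helicase that binds BRCA1, rose by 0.87 ± 0.20 and PALB2, the bridge between BRCA1 and BRCA2, by 0.45 ± 0.13, both called by edgeR at adjusted p-values of 0.00487 and 0.0192. BARD1, the partner of BRCA1 in the ligase, had medians of 256 in FF and 426 in RES and a value of 0.49 ± 0.17 (adjusted p = 0.0574) and was called in 9 of those 37 settings.

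Strand exchange genes gave 3 called members of 6. RAD51AP1, which stimulates the pairing of the broken end with the intact duplex, was at 66.1 to 311 (median 148) in FF sows and 111 to 502 (median 388) in RES sows. No FF sow reached the RES median, 9 RES sows were above the highest FF sow, and the log2 fold change was 1.22 ± 0.21 (adjusted p = 0.00183). The medians of XRCC2, which aids strand exchange, were 69.4 in FF and 120 in RES, and those of RAD51C, which acts in the same step, were 192 and 305. Both XRCC2 (0.86 ± 0.21, adjusted p = 0.00698) and RAD51C (0.55 ± 0.12, adjusted p = 0.00316) were called, and RAD51B, a gene of the same family, was not (0.10, adjusted p = 0.435). The translocases RAD54L (0.55 ± 0.20, adjusted p = 0.0607) and RAD54B (0.28 ± 0.13, adjusted p = 0.143) had positive values that missed the threshold and were called in 8 and 2 of those settings, and for neither did any RES sow exceed the highest FF sow.

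Both genes of end resection and dissolution were among the most changed members. EXO1, the exonuclease of long-range resection, was at 53.8 to 410 (median 195) in FF sows and 148 to 745 (median 430) in RES sows. BLM, the helicase that takes apart double Holliday junctions, was at 104 to 412 (median 215) in FF sows and 154 to 1085 (median 558) in RES sows. For BLM, 11 of 14 RES sows were above the highest FF sow, and for EXO1, 7 were. Their log2 fold changes were 1.25 ± 0.25 for EXO1 and 1.21 ± 0.24 for BLM, both with an adjusted p of 0.00194.

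The Fanconi core divided into members that rose and members that did not. UBE2T, the ubiquitin-conjugating enzyme of the pathway, had the largest difference of all members, 2.58-fold. It was at 17.3 to 134 (median 60.2) in FF sows and 67.9 to 275 (median 182) in RES sows. All 14 RES sows were above the FF median, 10 were above the highest FF sow, and 8 FF sows were below the lowest RES sow. The log2 fold change was 1.37 ± 0.24 (adjusted p = 0.00183). FANCB, a scaffold of the catalytic part of the core, rose from a median of 112 (range 45.2 to 211) to 254 (range 77.9 to 448), a log2 difference of 1.05 ± 0.22 (adjusted p = 0.00278). FANCM, the fork-remodelling translocase that anchors the core on DNA, rose by 0.70 ± 0.15 (adjusted p = 0.00322) and FANCC, which sits in another part of the core, by 0.59 ± 0.14 (adjusted p = 0.00560). FANCC was the member with the least overlap at the upper end, since 12 of 14 RES sows, at up to 229, were above the highest FF sow, at 126.

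The remaining core members were not called. FANCL, the ubiquitin ligase that works with UBE2T, was at 151 to 401 (median 228) in FF sows and 176 to 490.2 (median 236) in RES sows, with a log2 difference of -0.05 ± 0.16 (adjusted p = 0.879). FANCG, an adaptor of the core, had a median of 168 (range 102 to 203) in FF and 153 (range 116 to 220.3) in RES, a difference of -0.08 ± 0.10 (adjusted p = 0.639). FANCF, the adaptor that joins the core to FANCM, was barely counted, at 1.27 to 23.5 (median 13.3) in FF sows and 5.11 to 16.1 (median 10.6) in RES sows, and its value was -0.45 ± 0.24 (adjusted p = 0.217). FANCA (0.29, adjusted p = 0.543) and FANCE (0.12, adjusted p = 0.693) had medians of 11.2 and 13.3 in FF and 14.0 and 15.4 in RES. The enzyme UBE2T and the ligase FANCL, which act as a pair, thus had very different values in the same libraries.

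The FANCI and FANCD2 pair, the target of the core complex, rose together. FANCI was at 150 to 523 (median 309) in FF sows and 220 to 964 (median 623) in RES sows, with 10 RES sows above every FF sow and a log2 difference of 0.94 ± 0.19 (adjusted p = 0.00194). FANCD2 was at 105 to 332 (median 217) in FF sows and 185 to 659 (median 401) in RES sows, with 11 RES sows above every FF sow and a log2 difference of 0.88 ± 0.19 (adjusted p = 0.00294). MSH6, which recognises mismatched bases, went from a median of 992 to 1464 and rose by 0.41 ± 0.11 (adjusted p = 0.0169).

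**Figure D2:**
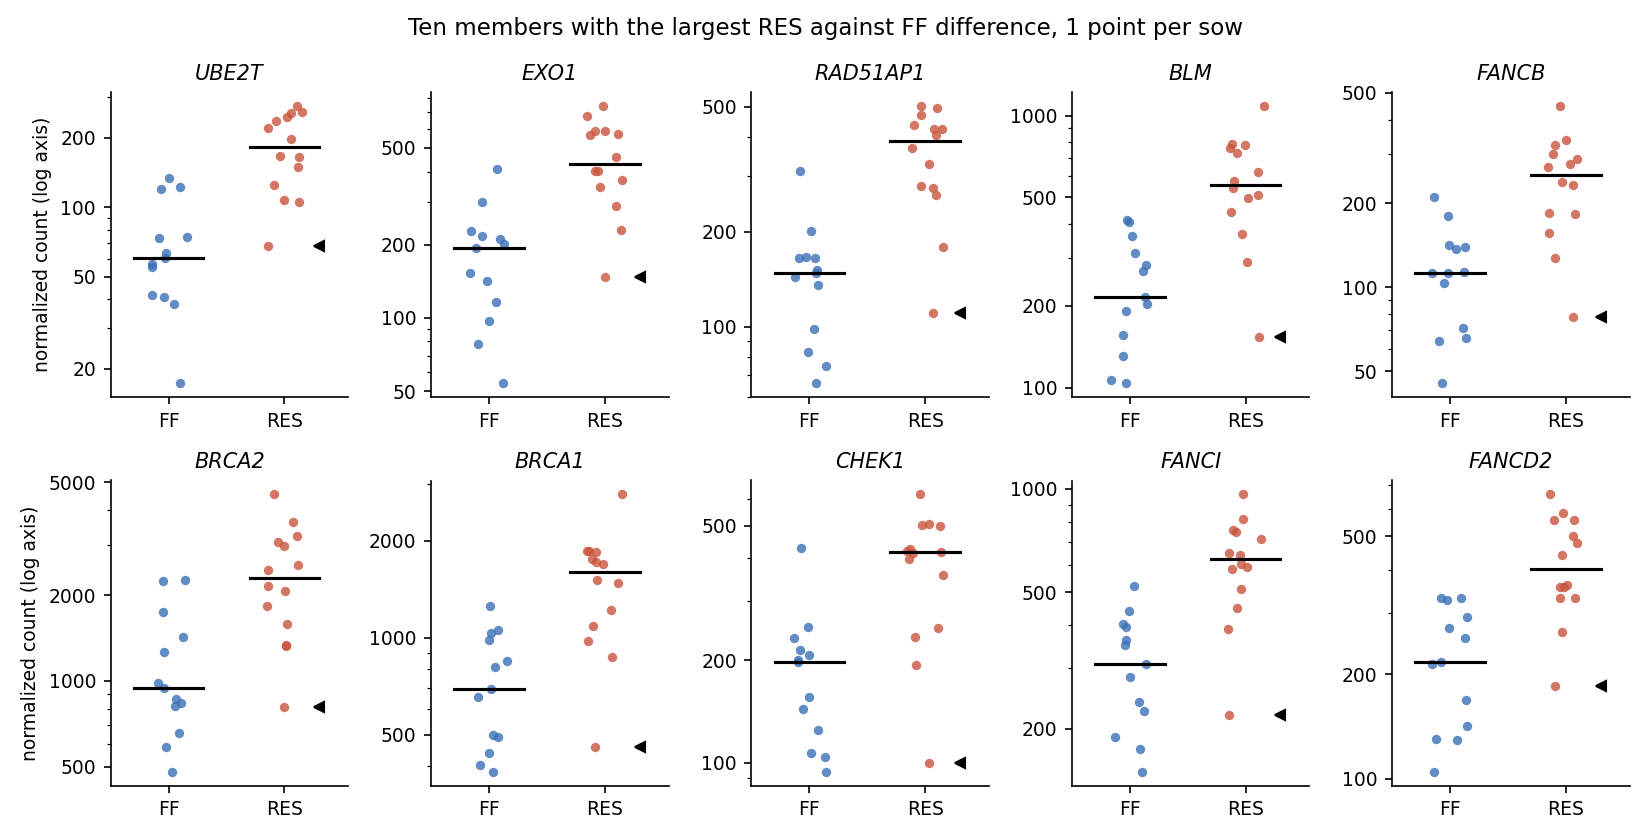
Normalized counts (log axis) of the 10 called members with the largest log2 fold change, 1 point per sow, with a bar at the median of the 13 FF and the 14 RES sows. The arrowhead marks RES sow 7, the lowest RES point in each of the 10 panels. UBE2T has all 14 RES sows above the FF median, and the other panels have 12 or 13.

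Per kilobase of RefSeq exon, the members spanned a wide range of levels. RAD50 was highest, at a mean of 506 normalized counts per kilobase in FF and 619 in RES, followed by NBN at 345 and 401, and FANCA was lowest at 2.48 and 3.12. UBE2T, at 61.1 per kilobase in FF and 163 in RES, and RAD51AP1, at 69.8 and 168, were below BRCA1 (80.9) in FF and beside it (166) in RES. The members with the highest levels per kilobase, RAD50, NBN, RAD54B and MSH6, all had log2 fold changes of 0.41 or less.

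Read pairs were counted without regard to strand, and with the counter's default a pair that touches exons of 2 annotated genes is assigned to neither, so the levels of members with shared exons are less certain. Overlaps were read from RefSeq, while the counts were made on Ensembl genes, whose exon overlaps were not examined. The overlap was 37.5% of the exon bases of FANCF, with GAS2, 17% of FANCA, with ZNF276, and 13.6% of FANCL, with VRK2. It was 10.2% of BRCA1, with NBR1, and 9.07% of FANCI, with POLG. None of these 5 partners was called by edgeR. RAD51AP1 shared 14.5% of its exon bases with DYRK4, which was not called (0.47, adjusted p = 0.102), and C5H12orf4, and CHEK2 shared 5.56% with TTC28 on its own strand.

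The share of high-quality base calls divided the libraries into 2 groups, and the comparison was repeated within each. The upper group held 7 FF and 7 RES sows and the lower group 6 FF and 7 RES sows. In the upper group 21 members were called, all higher in RES, among 2024 genes called in all (17.8%, with 9.84% higher and 7.94% lower), and the median of the members was 0.80. Within the lower group no member was called and 1 gene was (0.00878% of those tested), although 15 members had an unadjusted p under 0.05, 27 had a positive value and their median was 0.38. When RES sow 7, which belongs to the lower group, was left out of it, 10 members and 301 genes were called there. UBE2T was 1.46 ± 0.32 in the upper group and 1.27 ± 0.31 in the lower, and BRCA2 was 1.43 ± 0.31 and 0.44 ± 0.29. A test of the difference between the quality groups called no gene of 11385 in edgeR, with 1398 genes and 6 members at an unadjusted p under 0.05. The 6 were FANCA, PALB2, FANCL, BRCA2, BARD1 and RAD54L, all but FANCL with the larger value in the upper group.

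The relation of each member with PCNA was then examined within each diet, to ask whether the repair genes varied with replication from sow to sow. Over the 13 FF sows the median Pearson's r with PCNA was 0.68, from -0.54 for ATM to 0.94 for RAD51AP1, and 27 members had a positive r. In the 14 RES sows the median was 0.82, from -0.22 for FANCF to 0.95 for MSH6, with 30 positive. Over all 11384 genes other than PCNA the median r was 0.05 in FF and 0.06 in RES. An r over 0.8 was found for 9 members in FF and 18 in RES, beside 1.29% and 4.46% of all genes. Permutation tests (100000 resamples, two-sided, unadjusted, 64 relations in all) gave p under 0.05 for 17 members in FF and 23 in RES. The permutation test was not run over all genes. In the slope fit described next, an unadjusted p under 0.05 was found for 21 members and 1991 genes of 11384 in FF and for 24 members and 3045 genes in RES.

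Adjusted p-values over all genes came from an edgeR fit of each member's slope, its log2 change for each doubling of PCNA. In FF 15 members had a called slope, all positive, among 472 genes (4.15%), with 3.14% positive and 1.01% negative. The RES sows gave 21 members, all positive, among 1477 genes (13%), with 7.11% positive and 5.87% negative. Slopes were 0.94 ± 0.12 in FF and 0.92 ± 0.11 in RES for CHEK1, 0.89 ± 0.11 and 0.81 ± 0.10 for RAD51AP1, 0.76 ± 0.14 and 0.82 ± 0.13 for BRCA1, and 0.98 ± 0.18 and 0.83 ± 0.16 for EXO1. All 4 thus had slopes between 0.76 and 0.98 in both diets, where 1 would be a doubling for each doubling of PCNA. MSH6 (0.26 and 0.49) and MRE11 (0.23 and 0.51) had shallower slopes that were called in RES and not in FF. Without RES sow 7, whose PCNA of 530.2 was the lowest RES value, the RES count fell from 21 members to 13 and from 1477 genes to 340.

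The difference between the diets in slope was tested directly in the same fit. No member passed, and 1 gene of 11384 did (0.00878%), while at an unadjusted p under 0.05 there were 3 members and 602 genes. The 3 were ATM, with a slope of -0.29 ± 0.09 in FF and 0.05 ± 0.08 in RES and a difference of 0.33 (adjusted p = 0.910), MRE11, with a difference of 0.28 (adjusted p = 0.910), and MSH6, with 0.24 (adjusted p = 0.910). ATM had an r with PCNA of -0.54 in FF (permutation p = 0.0593) and 0.36 in RES (permutation p = 0.207).

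MSH6, RAD51C and RAD51AP1 had the highest r with PCNA in RES. MSH6 had r = 0.95 and Spearman's rho = 0.91 (both permutation p = 1e-05, the smallest the resamples can give), and r = 0.92 without the 2 sows farthest from the PCNA median. RAD51C had r = 0.94 (permutation p = 1e-05) and rho = 0.90 (permutation p = 5e-05), with r = 0.92 without those sows. RAD51AP1 had r = 0.94 (permutation p = 1e-05) and rho = 0.93 (permutation p = 3e-05), with r = 0.91 without them. Within the upper and the lower quality group of RES, r was 0.94 and 0.93 for MSH6, 0.94 and 0.89 for RAD51C, and 0.91 and 0.96 for RAD51AP1. In FF their r was 0.74, 0.83 and 0.94, and within the lower quality group of 6 FF sows it was 0.37, 0.21 and 0.91, so that of the 3 only RAD51AP1 had a high r in each division.

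FANCF, FANCG and FANCL had the lowest r with PCNA in RES. FANCF had r = -0.22 (permutation p = 0.442) and rho = -0.24 (permutation p = 0.407), FANCG had r = -0.06 (permutation p = 0.843) and rho = -0.24 (permutation p = 0.409), and FANCL had r = 0.03 (permutation p = 0.922) and rho = 0.11 (permutation p = 0.715). Without the 2 farthest sows their r was -0.27, 0.09 and -0.06. The 3 core members that had negative differences between the diets were thus also the 3 of lowest r among the RES sows. Over the 32 members the median r without the 2 farthest sows was 0.49 in FF and 0.76 in RES. The median r within the upper and lower quality groups was 0.78 and 0.57 in FF and 0.78 and 0.76 in RES.

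**Figure D3:**
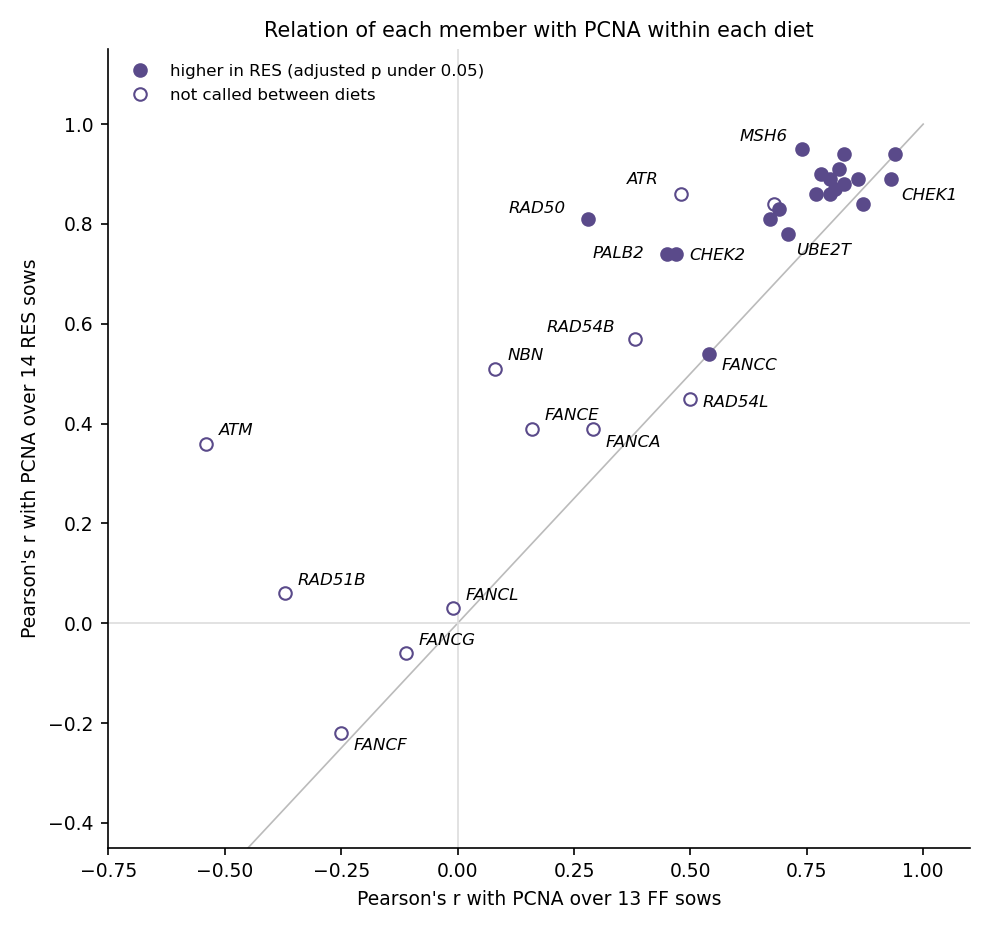
Pearson's r of each of the 32 members with PCNA over the 13 FF sows (horizontal axis) and the 14 RES sows (vertical axis), with the line of equal r. Filled points were higher in RES at an adjusted p under 0.05. Most filled points sit at the upper right, up to 0.94 in FF and 0.95 in RES, and ATM is at -0.54 in FF and 0.36 in RES.

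The members were also compared with each other across sows, as a description, since all points of a pair come from the same libraries. The median r between pairs of members was 0.43 in FF and 0.59 in RES over 496 pairs. Among the 20 called members it was 0.73 in FF and 0.84 in RES over 190 pairs, and 189 and 190 of the pairs were positive. For the 12 members that were not called it was 0.05 and 0.11 over 66 pairs. The closest pairs in both diets were EXO1 and FANCI (r = 0.96 in FF and 0.96 in RES), BLM and FANCI (0.95 and 0.98), BRCA1 and FANCI (0.97 and 0.95) and FANCD2 and FANCI (0.96 and 0.94). Averaged over the members as z-scores of log2 levels, the sows ran from -1.4 in FF sow 2 to 0.36 in FF sow 4, and from -1.0 in RES sow 7 to 1.33 in RES sow 1. FF sow 4 had the highest PCNA of the FF sows, 2255, and RES sow 7 the lowest of the RES sows, 530.2.

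**Figure D4:**
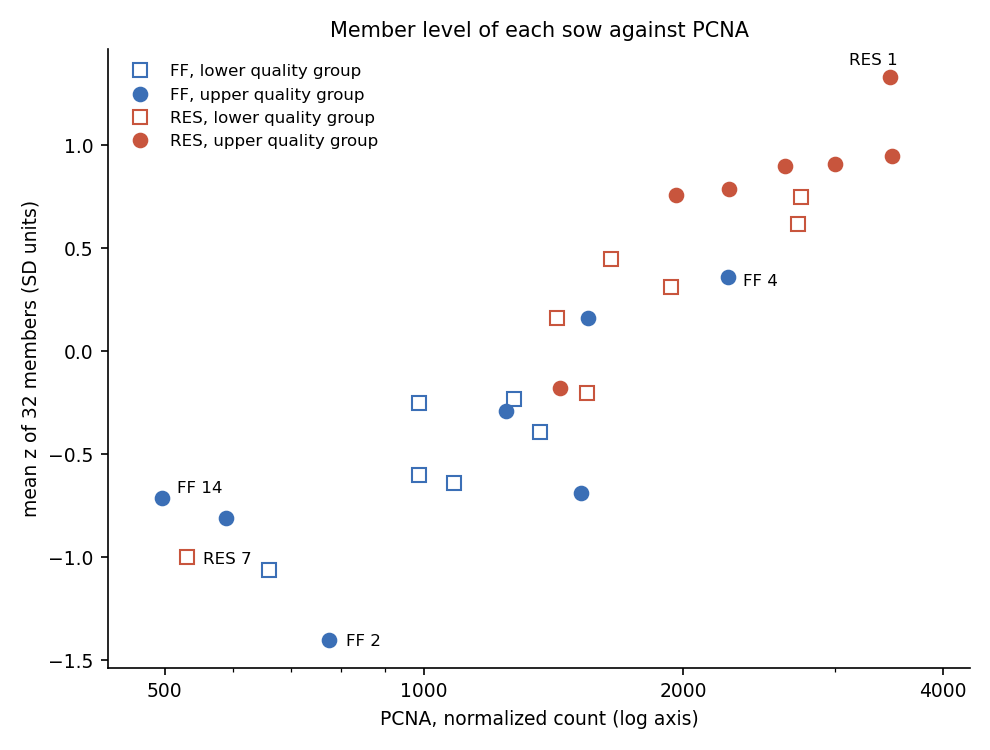
Mean z-score of the 32 members in each sow (SD units) against the normalized count of PCNA (log axis), for FF and RES sows of the upper and lower sequencing quality groups. RES sow 7, at a PCNA of 530.2 and a mean z of -1.0, lies among the lowest FF sows, and FF sow 4, at 2255 and 0.36, lies among the RES sows.

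The diets were finally compared at equal PCNA, by adding log2 PCNA to the fit, to ask how much of the difference between diets the members kept. PCNA is itself a measured outcome that differed between the diets, so the fit describes the difference at a given PCNA level and no more. No member and none of the 11384 genes were called by edgeR (0% in each direction), and 7 members and 751 genes had an unadjusted p under 0.05, while DESeq2 called 4 genes and no member. The median of the members was 0.14, beside 0.55 without PCNA in the fit, and 26 of 32 values were positive. RAD51AP1 was at 0.48 ± 0.11 (unadjusted p = 0.000151, adjusted p = 0.235) and UBE2T at 0.73 ± 0.21 (unadjusted p = 0.00162, adjusted p = 0.466). The other 5 were EXO1 (0.48), FANCI (0.32), BLM (0.36), MRE11 (0.24) and FANCD2 (0.27), with adjusted p-values of 0.573 to 0.745. CHEK1 went from 0.96 to 0.14, MSH6 from 0.41 to 0.04 and BARD1 from 0.49 to -0.03.

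**Figure D5:**
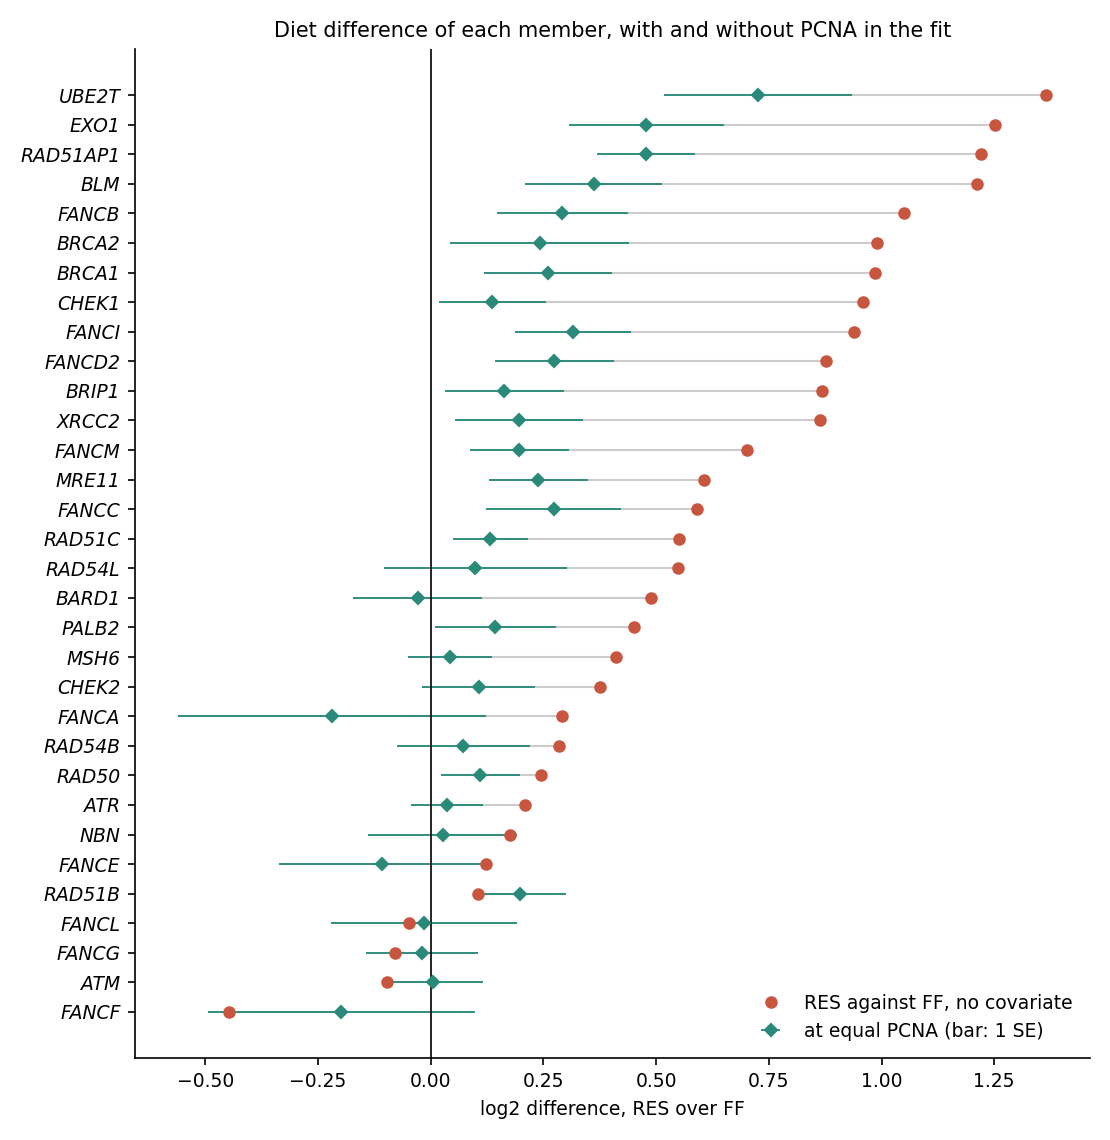
Log2 difference between RES and FF of each member without a covariate (circles) and with log2 PCNA in the fit (diamonds, bars of 1 SE), ordered by the first. UBE2T has the largest value in both, 1.37 and 0.73, and the median over the members goes from 0.55 to 0.14.

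Genes of the same and neighbouring repair pathways were read from lists outside the 33 members. Of 32 other recombination genes tested, 16 were higher in RES, 1 was lower and 15 were not called, with a median log2 fold change of 0.37. The largest were POLQ, the polymerase of end joining by microhomology, at 1.24 ± 0.24, PSMC3IP and MND1, the pair that aids strand exchange in meiosis, at 1.09 ± 0.22 and 1.07 ± 0.30, and HROB, which loads the MCM8 and MCM9 helicase, at 1.06 ± 0.26. The lower gene was BABAM2, a scaffold of the BRCA1-A complex, at -0.35 ± 0.11. Other Fanconi and crosslink genes gave 4 higher of 15, namely FAAP24 (1.20 ± 0.26) and CENPS (1.08 ± 0.19), which are partners of FANCM, RFWD3 (0.69 ± 0.15), a ubiquitin ligase, and USP1 (0.62 ± 0.12), the enzyme that removes ubiquitin from FANCD2 and FANCI. Other checkpoint and fork protection genes gave 10 higher of 22, the largest being CLSPN (0.93 ± 0.20) and TOPBP1 (0.88 ± 0.18), which help ATR activate CHEK1, with TIPIN (0.69 ± 0.17), of the fork protection complex, and RAD18 (0.68 ± 0.15), a ubiquitin ligase that acts on PCNA.

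The remaining repair pathways were read in the same way. End joining, with POLQ counted above among the recombination genes, gave 1 higher of 10, PARP1 (0.37 ± 0.11), with a median of 0.03. Nucleotide excision repair gave 0 of 15, with a median of 0.045. Base excision repair gave 3 higher of 16, the glycosylase NEIL3 (0.70 ± 0.18), the polymerase POLB (0.28 ± 0.08) and APTX (0.28 ± 0.08), with a median of 0.12. Called here means an adjusted p under 0.05 in the same edgeR fit, in which 14.1% of all genes were called. The difference between these lists and the members was not tested.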

How the data were processed

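RNA libraries of 13 FF and 14 RES sows, depleted of ribosomal RNA and made with a strand-marking kit, were analysed. Per the file headers and the study's methods, the authors aligned paired reads to Sscrofa11.1 with HISAT2 2.2.1, kept uniquely mapped reads (SAMtools 1.16.1), removed duplicates by molecular identifier (UMI-tools 1.1.4) and deposited raw counts per Ensembl gene from featureCounts 1.6.2, without a strand setting. Pairs from an unannotated antisense transcript would thus be counted for the sense gene. Tool versions are from the submitters' processing notes.

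From these counts, 35670 identifiers were named by a table of gene names (15623 had a symbol), 37 small RNAs were left out and 11385 named genes with a mean count of at least 5 were tested with edgeR 4.0.16 (TMM, quasi-likelihood) in R 4.3.3. The alternatives used DESeq2 1.42.0 and limma 3.58.1, and DESeq2 size factors gave the normalized counts. The fitted models were diet alone, a slope on log2 PCNA in each diet, and diet with log2 PCNA. Correlations used Python 3.11.15, numpy 2.4.6 and 100000 permutations. The fits were tested on simulated data. No 2 libraries of a group agreed within sampling noise (chi-square per degree of freedom at least 14.79 in FF and 10.99 in RES). The quality groups follow a gap in the base quality listed by the study, where FF sows 9 and 10 are numbered differently from the labels, so the group of FF sow 10 is uncertain.

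Members and lists were chosen with earlier results of these data known. Every tested member was named, with full statistics for the 10 called members of largest difference, the sensors and kinases, and members with a negative difference; correlation details went to the 3 highest and 3 lowest r in RES, and to ATM, chosen after its values were seen. Up to 4 called genes of each list were named. Alternatives are given in the closing section. Sequences and gene positions are from RefSeq annotation of Sscrofa11.1. A few genes, with their values, are not reported here.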

Additional observations from a re-analysis of the deposited data

How the results depend on the processing

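Over 37 alternatives that kept both quality groups, from other tools and scalings to leaving out single sows, 18 of the 20 called members were called in every one, and CHEK2 and RAD50 were the exceptions, lost in 16 and 11. When 1 sow was left out, 18 to 23 members were called, and the RES against FF calls, all genes included, numbered 1180 (without FF sow 6) to 2350 (without RES sow 7), while voom with sample quality weights called 3193 genes. In the lower quality group alone 0 members and 1 gene were called. Alternatives chosen after seeing the data gave 10 members and 301 genes in that group without RES sow 7, and, with FF sow 10 counted in the upper group, 1033 genes in the upper group and 0 members and 0 genes in the lower.

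Slopes on PCNA were called for 12 to 17 members in FF (228 to 567 genes, lowest without FF sow 6, and 12 members without FF sow 4 as well) and for 13 to 21 in RES (340 to 1868 genes, lowest without RES sow 7) when 1 sow was left out. Of the 17 members called in FF without FF sow 7, only 16 had a positive slope. The difference of slopes gave 0 to 2 genes (0 with limma-trend), and the diets at equal PCNA 0 to 1 genes (4 with DESeq2). Members with a permutation p under 0.05 numbered 15 to 20 in FF and 21 to 24 in RES, and 7 in the lower quality group of FF.

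Sow numbers are shared between diets but did not pair the sows: the deviations of same-numbered sows had a median correlation of 0.01, 1 of 13 pairs was over 0.1 and 0 sows correlated best with their own number. With the replicate number as a block, 19 members and 1084 genes were called between diets, 4 members and 53 genes had a called slope in FF and 5 members and 151 genes in RES, and 0 were called at equal PCNA.

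Of the members' values between diets, their slopes and their r, only uncalled ones changed direction, and the cause was not tested. Between diets in the lower quality group these were FANCA (-0.29), FANCE (-0.19) and FANCL (0.33), without RES sow 7 -0.16, -0.12 and 0.39, and with FF sow 10 in the upper group -0.027 for FANCE and 0.26 for FANCL. FANCL was also 0.02 with voom, and it ran from -0.151 to 0.019 when 1 sow was left out (above 0 without FF sow 3 or 6). The RES slope of ATM was -0.012 with quality group as a covariate. With the replicate block the slopes of FANCE (-0.355) and FANCL (0.09) in FF and of CHEK2 (-0.009) and FANCL (-0.108) in RES changed direction, as did FANCG (0.01) and NBN (0.096) in FF without FF sow 14 and FANCL (-0.142) and RAD51B (0.077) in RES without RES sow 7. The r with PCNA of FANCG became 0.12 in the lower quality FF sows, 0.10 without the 2 farthest FF sows, 0.14 in the lower quality RES sows and 0.09 without the 2 farthest RES sows. FANCL became 0.05 in the upper quality FF sows and, in RES, -0.01 with TMM scaling and -0.06 without the 2 farthest sows, and FANCF became 0.03 in the lower quality RES sows. Positive r became negative within the upper quality RES sows for RAD54L (-0.36), FANCE (-0.44) and FANCA (-0.05), within the lower quality RES sows for RAD51B (-0.49), within the lower quality FF sows for ATR (-0.42), NBN (-0.30), RAD54B (-0.13) and RAD50 (-0.05), and without the 2 farthest FF sows for FANCE (-0.04). With 1 sow left out, r ran from -0.22 to 0.00 (FANCG) and -0.32 to 0.17 (FANCL) in FF, from -0.25 to 0.02 and -0.11 to 0.19 in RES, from -0.22 to 0.32 for NBN in FF and from -0.08 to 0.34 for RAD51B in RES.

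FANCA, FANCE and FANCF had medians under 16 normalized counts, and the part of depth in their values was not tested. Follicle size, and the theca and endothelial markers that were highest in RES sow 7, were not terms in a fit. Each sow gave 1 library, so p-values cover the spread between sows and the handling of their samples together.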

Other observations

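Repair genes outside the member list also had called slopes on PCNA, as counted in the same edgeR fit, in which 4.15% of all genes were called in FF and 13% in RES. Of the 32 other recombination genes, 14 had a called slope in FF and 15 in RES, with median slopes of 0.23 and 0.37 per doubling of PCNA. The 15 other Fanconi and crosslink genes gave 3 in FF and 4 in RES. The 22 other checkpoint and fork protection genes gave 4 in FF and, as positive slopes, 6 in RES. TP53BP1, of this last list, also had a called negative slope in RES (-0.22, adjusted p = 0.0364). The 16 base excision repair genes gave 2 and 2 and the 10 end joining genes 0 and 1. None of the 15 nucleotide excision repair genes had a called slope in either diet, with medians of -0.001 and 0.12. At equal PCNA no gene of these lists was called.

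The proliferation markers measured (PCNA, TOP2A and MCM2) summed to 2465 to 16660 normalized counts in FF, with a median of 8848, and to 6521 to 34350 in RES, with a median of 20630. FF sow 2 and RES sow 7 had the lowest sums of their diets.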
